A study of Mus musculus with 19 samples.

Results

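Chemokines are small secreted proteins that draw leukocytes along a gradient, and adipocytes release several of them. The 10 genes described here are chemokine ligands known from fat tissue, chosen by name: Ccl2, Ccl7, Ccl8, Ccl9, Cxcl1, Cxcl5, Cxcl10, Cxcl12, Cx3cl1 and Cxcl14. All 10 were measured, each by 1 probe set, among 18820 genes. They were read in differentiated 3T3-L1 cells, mouse preadipocytes of an established line that store fat once induced to differentiate, on 19 whole-transcript arrays. Serum was withdrawn on day 7 after induction. From day 8 the cultures spent 48 h in insulin medium with 2% albumin, ethanol and 250 µM of a single fatty acid. The acids were palmitic acid (PA, 16:0, n = 4), palmitoleic acid (PMA, 16:1n7, titled PMO on the arrays, n = 4), stearic acid (SA, 18:0, n = 4) and oleic acid (OA, 18:1n9, n = 3). PA and SA are saturated, and PMA and OA hold 1 double bond. Control cells (n = 4) received albumin and ethanol alone. The cultures are of 1 line and hold whatever cells remained undifferentiated. Replicates are labelled biological, but nothing says how the cultures were kept separate, so p-values measure the spread between these arrays.

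In textbook terms the CC chemokines Ccl2 and Ccl7 signal through the receptor CCR2 and bring monocytes out of the blood into inflamed fat, where they become macrophages. The CXC chemokines Cxcl1 and Cxcl5 act through CXCR2 on neutrophils, Cxcl10 is induced by interferon and acts through CXCR3 on T cells, and Cxcl12 is made constitutively by stromal cells and acts through CXCR4. Transcription factors of the NF-kB family, downstream of Toll-like and tumour necrosis factor receptors, switch on many of the inflammatory members.

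Values are log2 RMA expression, a background-corrected and between-array normalised signal. A difference of 1 is a doubling of that signal, so the differences below are small. A gene passed the test at a Benjamini-Hochberg adjusted p under 0.05 in limma, adjusted over all 18820 genes of a comparison. Errors of means are SDs over arrays, and errors of differences are SEs of the fit.

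Ccl7 was lower with both monounsaturated acids than in control, by 0.47 with PMA and 0.31 with OA, and Cxcl12 was higher with OA by 0.28. Ccl9 was lower with OA by 0.37. Between the saturated and the monounsaturated acids, Ccl2 and Ccl7 were higher and Cxcl12 was lower with the saturated ones. No member passed the test with PA or SA against control. In bulk RNA, fewer cells of a type and less RNA per cell cannot be told apart.

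In PMA against control 1 of the 10 members passed (Ccl7, lower), where 0.266% of all genes passed. In OA against control 3 passed (Ccl7 and Ccl9 lower, Cxcl12 higher) against 0.861% of all genes. No member passed in PA against control, where limma called 0 of all genes (0%) although 2900 had an unadjusted p under 0.05, 3 members among them. No member passed in SA against control, where 0.165% of all genes passed and 1 member had an unadjusted p under 0.05 (8.53% of all genes), nor in the mean of the 4 acids against control, where 0.197% of genes passed and 3 members had such a p (12.7% of all genes). Between acids, 3 members passed in the mean of PA and SA against the mean of PMA and OA (0.553% of all genes), 3 in PA against PMA (0.962%), 3 in PA against OA (1.92%) and 2 in PMA against SA (0.244%). No member passed in SA against OA (0.0319% of all genes), PA against SA (0.143%) or PMA against OA (0.0531%), and 5, 3 and 3 members had an unadjusted p under 0.05 there, as did 2.4%, 15.8% and 8.61% of all genes. Comparisons that share a group of arrays are not independent of one another.

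The whole series gave these limits. The median of an array was 5.23 to 5.43, and no 2 arrays correlated below 0.988. PA replicates 2 and 4 stood apart on the leading principal component, which took 31.2% of the variance (-27.4 and -13.8, all others between -8.27 and 10.4). PMA replicates 1 and 4 stood apart on the next one, with 13.7% (17.1 and 11.9, all others between -7.57 and 4.44). No scan date or batch was given in the labels. Of 14 measured adipocyte markers, Adipoq and Fabp4 among them, all lay above the background range in each group, and their mean was 11.27 to 11.41 on every array. That range was taken from 1157 olfactory and vomeronasal receptor genes, whose 95th percentile was 4.94. The probe sets of 3 members, Ccl8, Cxcl5 and Cxcl14, lay below it on their mean over the arrays, so little can be read from their differences.

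Promoters of 7 of the 10 members were found in RefSeq's table for GRCm38.p6; Ccl2, Ccl7 and Cxcl5 were not among them. The 250 bases before the start of 3 members that passed a test are shown, with matches to 5 searched motifs in capitals. These were the kappaB motif bound by NF-kB, the AP-1 motif, TTCNNNGAA (GAS), the core of the interferon-stimulated response element (ISRE) and the TATA box motif TATAAA, on both strands. They are shown as the members of the table that passed a test; Cxcl10 and Ccl9 hold several of the motifs and Cxcl12 none of the 5.
Cxcl10, chr5:92348890-92349139, minus strand: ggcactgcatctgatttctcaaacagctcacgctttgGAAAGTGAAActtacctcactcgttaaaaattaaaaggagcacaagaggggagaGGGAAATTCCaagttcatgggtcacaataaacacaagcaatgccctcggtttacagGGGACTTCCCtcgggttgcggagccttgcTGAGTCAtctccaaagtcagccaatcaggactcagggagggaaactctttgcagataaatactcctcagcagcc
Ccl9, chr11:83578637-83578886, minus strand: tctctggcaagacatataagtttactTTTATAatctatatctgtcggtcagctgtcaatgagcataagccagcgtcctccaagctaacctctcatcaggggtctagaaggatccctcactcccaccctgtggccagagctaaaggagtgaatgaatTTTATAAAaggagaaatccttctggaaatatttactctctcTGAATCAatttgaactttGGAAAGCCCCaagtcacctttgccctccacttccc
Cxcl12, chr6:117168285-117168534, plus strand: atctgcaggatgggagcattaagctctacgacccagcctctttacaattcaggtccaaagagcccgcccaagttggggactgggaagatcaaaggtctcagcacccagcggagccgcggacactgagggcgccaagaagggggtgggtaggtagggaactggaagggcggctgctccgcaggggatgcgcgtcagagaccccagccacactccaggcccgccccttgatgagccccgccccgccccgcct
In Cxcl10 the capitals mark, from the left, the ISRE core (213 to 204 bases before the start), a kappaB match (159 to 150), another (103 to 94) and an AP-1 match (74 to 68). In Ccl9 they mark TATA-box letters on the minus strand (224 to 219), an overlapping pair of TATA matches on both strands (94 to 87), an AP-1 match (53 to 47) and a kappaB match on the minus strand (35 to 26). An AP-1 match reads on both strands as 1 site. Of the other 4 promoters, Cxcl1 held a kappaB match on each strand at overlapping positions (71 to 61), Cxcl14 a GAS (191 to 183) and an ISRE core (172 to 163), and Ccl8 and Cx3cl1 only a TATA match. Among 32851 promoters of the same length, 3.9% held kappaB, 6.75% AP-1, 7.02% GAS, 2.98% the ISRE core and 12.4% the TATA box. A match describes letters in this window and was not tested as a binding site.

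Ccl7, the monocyte chemoattractant MCP-3, had its 2 lowest group means with the monounsaturated acids. Its log2 values were 8.37, 8.19, 8.14 and 8.40 in control, and 7.85, 7.76, 7.84 and 7.75 with PMA. With OA they were 7.87, 7.94 and 8.09. All PMA and all OA arrays lay below all control arrays, and all PMA arrays lay below all OA arrays. With PA (8.15 to 8.21) and SA (8.04 to 8.26) the arrays overlapped the lower control arrays. Group means were 8.27 ± 0.13 in control, 8.18 ± 0.03 with PA, 8.17 ± 0.09 with SA, 7.97 ± 0.11 with OA and 7.80 ± 0.05 with PMA (SD, n = 4, or 3 for OA).

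Ccl7 fell with PMA by 0.47 ± 0.06 (95% interval of the difference -0.61 to -0.34, limma adjusted p = 0.00124), a signal that fell by 28.0%. The call held with each of the 19 arrays left out in turn (adjusted p 0.00105 to 0.0116). With PMA replicates 1 and 4 both left out, Ccl7 differed by -0.47 at an adjusted p of 0.0585. With OA, Ccl7 fell by 0.31 ± 0.07 (interval -0.45 to -0.16, limma adjusted p = 0.0383), a signal that fell by 19.2%. That call was lost without control 1 or 4, PMA 3, SA 1 or 3, or OA 2 or 3, where Ccl7 differed by -0.31 to -0.26 at adjusted p 0.05002 to 0.169. It was also lost with every probe set tested (0.0603) and with only the control and OA arrays (0.100).

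With the saturated acids Ccl7 did not pass against control: PA differed by -0.093 (interval -0.23 to 0.04) and SA by -0.10 (interval -0.23 to 0.03), with limma adjusted p of 0.475 and 0.744. Between acids of 16 carbons, Ccl7 was higher with PA than with PMA by 0.38 ± 0.06 (interval 0.25 to 0.51, adjusted p = 0.00439), with no overlap of the arrays. Ccl7 was lower with PMA than with SA by 0.37 (-0.37 ± 0.06, adjusted p = 0.00877). Between acids of 18 carbons, Ccl7 was 0.21 higher with SA than with OA (interval 0.06 to 0.35, adjusted p = 1.00), and between PA and OA the same difference of 0.21 had an adjusted p of 0.0981. Over both pairs Ccl7 was 0.29 ± 0.05 higher with the saturated acids (interval 0.20 to 0.39, adjusted p = 0.00228). The PA-PMA and PMA-SA calls on Ccl7 were lost with PMA replicates 1 and 4 both left out (adjusted p = 0.0777 and 0.190). Acids of the same saturation that differ by 2 carbons did not pass in Ccl7. PA minus SA was 0.0067 (interval -0.13 to 0.14), and PMA minus OA was -0.17 (interval -0.31 to -0.02, limma adjusted p = 0.528). For the mean of the 4 acids Ccl7 differed from control by -0.24 ± 0.05 (adjusted p = 0.0503), and the call was gained without control 3, PA 1, PA 2 or OA 1 (-0.29 to -0.24, adjusted p 0.0405 to 0.0471).

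Ccl2, the monocyte chemoattractant MCP-1 and the best known of the chemokines of obese fat, lies beside Ccl7 on chromosome 11 with no coding gene between them. Its log2 values were 7.09, 6.83, 7.11 and 6.89 in control and 6.61, 6.69, 6.81 and 6.62 with PMA. They were 7.17, 7.18, 7.18 and 7.08 with PA, 7.36, 6.90, 6.98 and 7.20 with SA, and 6.87, 7.07 and 6.81 with OA. The PMA arrays lay below all control, PA and SA arrays, and the highest of them lay level with the lowest OA array. PA arrays varied least (SD 0.05) and SA arrays most (SD 0.21).

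No acid changed Ccl2 past the threshold against control. PMA differed by -0.29 ± 0.09 (interval -0.48 to -0.11, limma adjusted p = 0.127), without overlap with control. PA differed by 0.17 (interval -0.01 to 0.35), SA by 0.13 (-0.05 to 0.31) and OA by -0.06 (-0.26 to 0.13), with adjusted p of 0.344, 0.768 and 0.890. Between the acids, PA exceeded PMA in Ccl2 by 0.47 ± 0.09 (interval 0.28 to 0.65, limma adjusted p = 0.0110), a signal 1.38 times as high, with no overlap. That call held with each array left out in turn, and was lost with array quality weights (0.0516), with PA replicates 2 and 4 left out (0.0645) and with PMA replicates 1 and 4 left out (0.203). Over both pairs Ccl2 was 0.33 ± 0.06 higher with the saturated acids (interval 0.20 to 0.46, adjusted p = 0.0153). This call was lost without OA 1 (0.32, adjusted p = 0.0522) or OA 3 (0.30, adjusted p = 0.0811), with every probe set tested (0.0611), and with PMA replicates 1 and 4 left out (0.132).

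Ccl2 was lower with PMA than with SA by 0.42 (-0.42 ± 0.09, limma adjusted p = 0.0404). This call was lost without any 1 of PA 3, PMA 1, PMA 2, PMA 4, SA 1, SA 3, SA 4 or OA 1 (differences -0.47 to -0.34, adjusted p 0.0515 to 0.185), with a replicate block (0.0750), with every probe set tested (0.127), with only those 8 arrays (0.103), with array quality weights (0.0580) and with PMA 1 and 4 left out (0.719). SA minus OA was 0.19 (interval -0.003 to 0.39, adjusted p = 1.00) and PA minus OA 0.23 (interval 0.04 to 0.43, adjusted p = 0.166). Between acids of the same saturation, PA minus SA was 0.04 (interval -0.14 to 0.22) and PMA minus OA was -0.23 (interval -0.43 to -0.03, adjusted p = 0.528).

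Ccl9, a CC chemokine that acts on the receptor CCR1 of monocytes, had its highest group mean in control. Its log2 values were 6.52, 6.15, 6.52 and 6.47 in control and 6.06, 6.00 and 6.09 with OA, so all OA arrays lay below all control arrays. Control replicate 2 stood below the other 3 controls. With PA (6.17 to 6.29), PMA (6.12 to 6.42) and SA (6.23 to 6.27) the arrays lay between control 2 and the other controls or, for 1 PMA array, below control 2. All OA arrays also lay below all PA, PMA and SA arrays.

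Ccl9 fell with OA by 0.37 ± 0.08 (interval -0.53 to -0.21, limma adjusted p = 0.0284), a signal that fell by 22.5%. The call was lost without control 1, 3 or 4 or any 1 OA array (-0.39 to -0.33, adjusted p 0.0779 to 0.115), and with only the control and OA arrays (0.0827). The other acids were 0.16 to 0.19 lower than control (PA -0.19, PMA -0.16, SA -0.17) at limma adjusted p of 0.253, 0.277 and 0.467. For the mean of the 4 acids Ccl9 differed by -0.22 ± 0.06 (adjusted p = 0.105), and passed without control 2 (-0.31, adjusted p = 0.0177), with cyclic loess (-0.25, 0.0402) and with array quality weights (-0.24, 0.0128). No pair of acids differed past the threshold in Ccl9. The largest of those differences was PMA minus OA at 0.21 (interval 0.05 to 0.37, adjusted p = 0.497).

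Ccl8 (MCP-2), which lies on chromosome 11 past Ccl7 with the genes Ccl11 and Ccl12 between, gave a signal in the background range. Its arrays ran from 4.36 to 4.77 over all groups and overlapped everywhere. Each acid differed from control by -0.10 to -0.09 (lowest interval bound -0.30, highest 0.10), and no comparison passed. Leaving out PA replicates 2 and 4 turned the PA difference in Ccl8 to 0.07.

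**Figure D1:**
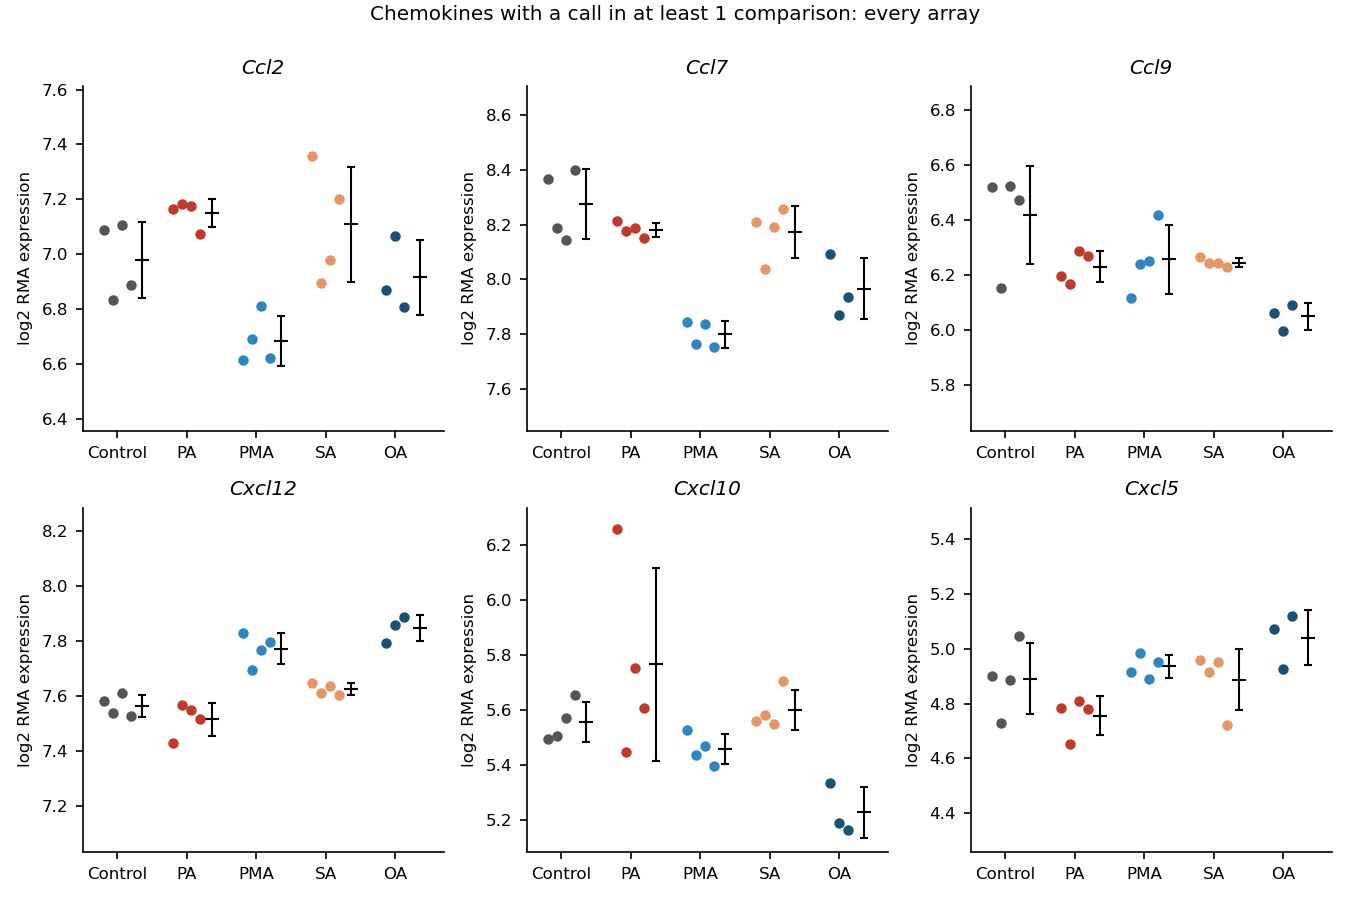
log2 RMA expression (vertical axis) of the 6 chemokines that passed the test in at least 1 comparison, for each array of control, PA, PMA, SA and OA (horizontal axis). Each point is an array and the bar beside it is the mean ± SD. The PMA and OA arrays of Ccl7 lie below the control arrays and those of Cxcl12 above them, and PA replicate 1 stands alone at 6.26 in Cxcl10.

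Cxcl1 and Cxcl5, ligands of the neutrophil receptor CXCR2, lie on chromosome 5. Cxcl1 had log2 values of 6.83, 6.31, 6.65 and 6.73 in control and 6.67, 6.97, 6.78 and 6.89 with PA. The PA arrays overlapped control and stood above all PMA (6.47 to 6.66) and OA (6.53 to 6.60) arrays, and SA arrays ran from 6.37 to 6.72. PA minus control was 0.20 ± 0.09 (interval 0.01 to 0.39, limma adjusted p = 0.313). The other acids differed from control by -0.08 to -0.06, with intervals within -0.27 to 0.15. PA exceeded the other acids in Cxcl1 by 0.26 to 0.27, with adjusted p of 0.146 (PMA), 0.198 (SA) and 0.150 (OA), none past the threshold. With PA 2 and 4 left out, PA exceeded the other acids by 0.16 to 0.17 and control by 0.096.

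Cxcl5 had a signal in the background range, from 4.65 to 5.12 over the arrays. Its values were 4.78, 4.65, 4.81 and 4.78 with PA and 5.07, 4.93 and 5.12 with OA, without overlap, and control arrays ran from 4.73 to 5.05, overlapping both. Cxcl5 was lower with PA than with OA by 0.28 (-0.28 ± 0.07, interval -0.43 to -0.13, limma adjusted p = 0.0461). The call held without control 2, control 4, PA 1, PA 3 or SA 4 and was lost without any 1 of the other 14 arrays (-0.34 to -0.24, adjusted p 0.0512 to 0.202). It was also lost under 6 of the alternatives, among them the replicate block (0.0784) and only the PA and OA arrays (0.224). Against control no acid passed in Cxcl5.

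Cxcl10, the interferon-inducible T cell chemokine IP-10, varied most among the PA arrays. Its log2 values were 6.26, 5.45, 5.75 and 5.61 with PA, and 5.50, 5.51, 5.57 and 5.66 in control. With SA they were 5.56, 5.58, 5.55 and 5.71, with PMA 5.53, 5.44, 5.47 and 5.40, and with OA 5.33, 5.19 and 5.16. The OA arrays lay below the arrays of all other groups, and the PA arrays spanned from below the controls to well above them. Its spread within groups was larger than that of 96.3% of all genes.

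Cxcl10 was higher with PA than with OA by 0.54 ± 0.12 (interval 0.30 to 0.78, limma adjusted p = 0.0224), a signal 1.45 times as high. Without PA 1 the difference was 0.37 and passed (adjusted p = 0.0113). The call was lost without OA 2 (0.52, 0.0801) or OA 3 (0.50, 0.115), with cyclic loess (0.48, 0.0505), with every probe set tested (0.0552) and with only the PA and OA arrays (0.266). Against control, OA differed by -0.33 ± 0.12 (interval -0.57 to -0.09, adjusted p = 0.227), a difference that passed without PA 1 (adjusted p = 0.0274), with only the control and OA arrays (0.0429) and with array quality weights (0.0163). PA differed from control by 0.21 (interval -0.01 to 0.43, adjusted p = 0.348), PMA by -0.10 and SA by 0.04. The saturated acids stood 0.34 ± 0.08 above the monounsaturated ones in Cxcl10 (interval 0.18 to 0.50, adjusted p = 0.0539). That difference passed without PA 1 (0.26, adjusted p = 0.0141) and without PA 2 (0.39, adjusted p = 0.00594). It also passed with PA 2 and PA 4 both left out (0.46, adjusted p = 0.000737), without the lowest 1 in 3 genes (0.0385), with a trended robust spread (0.0268) and with array quality weights (0.00403). It did not pass with cyclic loess (limma adjusted p = 0.103), every probe set tested (0.142), averaged probe sets (0.0529) or a replicate block (0.0654). Nor did it pass with only the arrays compared (0.113) or with PMA 1 and 4 left out (0.191). The pairs gave 0.31 for PA minus PMA and 0.37 for SA minus OA, with intervals of 0.09 to 0.53 and 0.13 to 0.61 and adjusted p of 0.144 and 1.00. The difference of PA and PMA passed with PA 2 and PA 4 both left out (0.55, adjusted p = 0.0118).

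Cxcl12, the stromal chemokine SDF-1 that holds CXCR4-bearing cells in place, ran the other way. Its log2 values were 7.58, 7.54, 7.61 and 7.53 in control, 7.43, 7.57, 7.55 and 7.52 with PA, and 7.65, 7.61, 7.64 and 7.60 with SA. With PMA they were 7.83, 7.70, 7.77 and 7.80, and with OA 7.79, 7.86 and 7.89. The 7 arrays of the monounsaturated acids all lay above the 12 others. Of the variance of Cxcl12 over the 19 arrays 90.0% lay between groups, against 84.0% for Ccl7 and 8.56% to 67.7% for the other members. Group means of few arrays take up part of the variance even without a difference between groups. The share was not computed over all genes, so a low one is no sign of a group effect. The spread of Cxcl12 within groups was larger than that of only 2.09% of all genes.

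Cxcl12 rose with OA by 0.28 ± 0.05 (interval 0.18 to 0.39, limma adjusted p = 0.0117), a signal 21.7% higher. The call was lost without control 4 (0.27, adjusted p = 0.0505) or OA 3 (0.26, adjusted p = 0.0755). With PMA the difference from control was 0.21 ± 0.05 (interval 0.11 to 0.31, adjusted p = 0.0606), without overlap of the arrays. It passed without PA 2 (adjusted p = 0.0403), with PA 2 and PA 4 both left out (0.0455), with array quality weights (0.0241), with a trended robust spread (0.0423) and without the lowest 1 in 3 genes (0.0326). PA and SA differed from control by -0.05 (interval -0.15 to 0.05) and 0.06 (interval -0.04 to 0.16), with adjusted p of 0.618 and 0.820.

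The saturated acids had less Cxcl12 than the monounsaturated ones, by -0.24 ± 0.03 (interval -0.31 to -0.17, limma adjusted p = 0.000937). The 8 and 7 arrays did not overlap, which held for 0.213% of all genes, and the call held with each array left out and under all 10 other alternatives. PA minus PMA was -0.26 ± 0.05 (interval -0.36 to -0.16, adjusted p = 0.00936), lost with cyclic loess (-0.19, 0.0517), with only those arrays (0.196) and with PMA 1 and 4 left out (-0.22, 0.176). PA minus OA was -0.33 ± 0.05 (interval -0.44 to -0.23, adjusted p = 0.00213), lost with only those arrays (0.125). SA minus OA was -0.22 ± 0.05 (interval -0.33 to -0.12, adjusted p = 0.519), without overlap, and it passed with array quality weights (-0.23, 0.0295). Between acids of the same saturation no difference in Cxcl12 passed: PMA minus OA was -0.07 (interval -0.18 to 0.03) and PA minus SA -0.11 (interval -0.21 to -0.01), with adjusted p of 0.681 and 0.278.

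**Figure D2:**
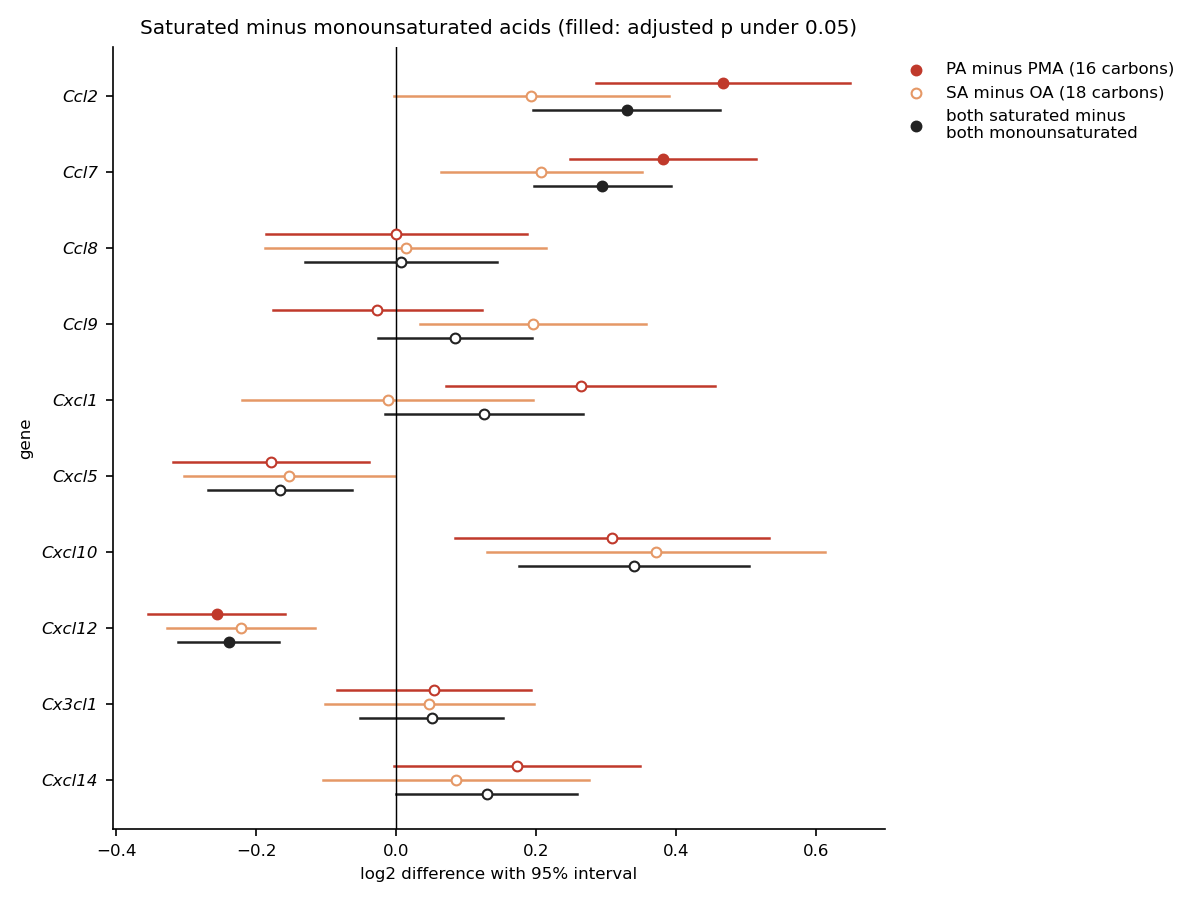
Difference in log2 RMA expression (horizontal axis) of each of the 10 chemokines (vertical axis) for PA minus PMA, SA minus OA and the mean of both saturated minus the mean of both monounsaturated acids, with 95% intervals. Filled points passed at an adjusted p under 0.05. Ccl2, Ccl7 and Cxcl12 are filled in PA minus PMA and in the mean, and no point is filled in SA minus OA.

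Cxcl14, a CXC chemokine that many epithelial cells make constitutively, had a signal in the background range. Its values were 4.69, 5.13, 5.09 and 4.87 with PA and 4.63, 4.50, 4.67 and 4.79 in control. PA replicate 1 lay within the controls and the other 3 PA arrays above them. PA minus control was 0.30 ± 0.08 (interval 0.12 to 0.47, limma adjusted p = 0.199). Without PA 1 the PA differences passed against control (0.38, adjusted p = 0.0268), against SA (0.33, adjusted p = 0.0405) and against OA (0.41, adjusted p = 0.0120). With PA 1 included they did not. With PA 2 and 4 left out instead, they were 0.24, 0.19 and 0.27 (limma adjusted p = 0.997, 0.956 and 0.409). PA minus OA with all arrays was 0.33 (adjusted p = 0.0654), and it passed with array quality weights (0.0326). The other acids differed from control in Cxcl14 by -0.03 to 0.13.

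Cx3cl1, the membrane-bound chemokine fractalkine that is shed by proteases and binds CX3CR1, stayed near its control level in each group. Its arrays ran from 8.06 to 8.43, with means of 8.29 in control, 8.35 with PA, 8.30 with PMA, 8.28 with SA and 8.23 with OA. The groups overlapped throughout. The differences from control were 0.06 (PA), 0.004 (PMA), -0.01 (SA) and -0.06 (OA), and their intervals lay within -0.21 and 0.20. Differences of Cx3cl1 beyond that range are outside the intervals, and smaller ones are not excluded.

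**Figure D3:**
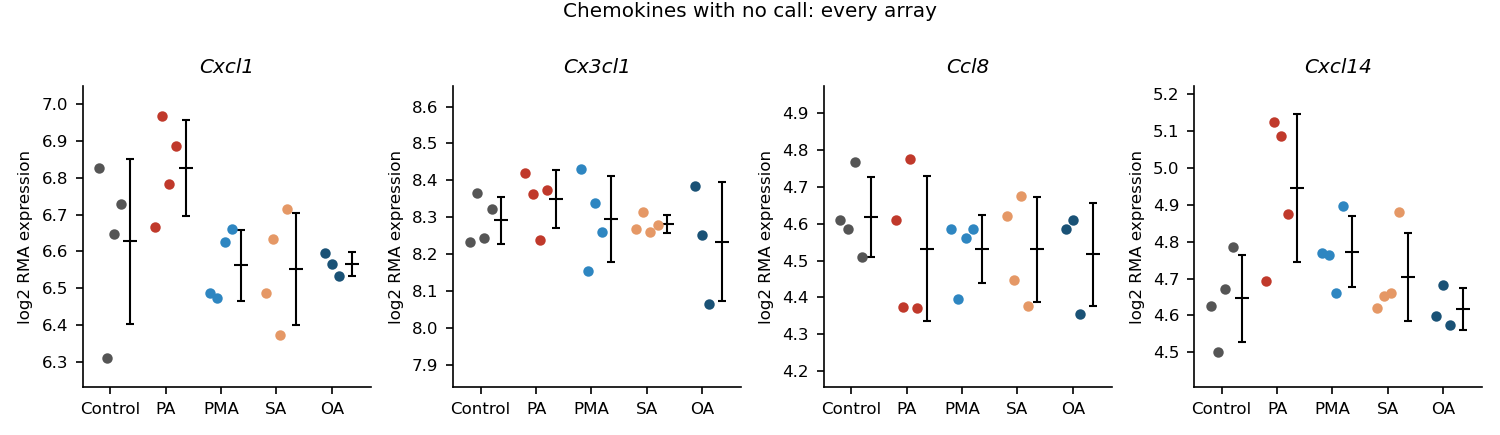
log2 RMA expression (vertical axis) of the 4 chemokines that passed in no comparison, for each array of control, PA, PMA, SA and OA (horizontal axis). Points are arrays and bars are the mean ± SD. Cx3cl1 runs from 8.06 to 8.43 with all groups overlapping, and 3 of the 4 PA arrays of Cxcl14 lie above the control arrays.

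Set side by side, the members did not move as 1 block. Against control the median difference of the 10 was 0.0046 with PA, -0.076 with PMA, -0.0066 with SA and -0.063 with OA, where the medians of all genes were 0.030, 0.061, 0.015 and 0.016. Against OA, PA had 8 of the 10 higher, with a median of 0.20 (all genes 0.019), and 8 of the 10 did not overlap, where 14.5% of all genes did not. Among those without overlap, Cxcl5 and Cxcl14 had signals in the background range. Some gaps were narrow: the lowest PA and highest OA arrays were 7.075 and 7.067 in Ccl2, and 4.693 and 4.682 in Cxcl14. In PMA against control 3 did not overlap (all genes 10.6%), in OA against control 4 (14.4%), in PA against PMA 5 (8.01%), in SA against OA 3 (4.63%), in PMA against OA 3 (8.89%), in PMA against SA 4 (5.09%) and in PA against SA 1 (5.3%). In PA against control and SA against control none stood clear (all genes 5.55% and 7.39%). In the mean of the saturated minus the monounsaturated acids the median was 0.11 (all genes -0.015), with 8 members higher and 2, Cxcl5 and Cxcl12, lower.

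**Figure D4:**
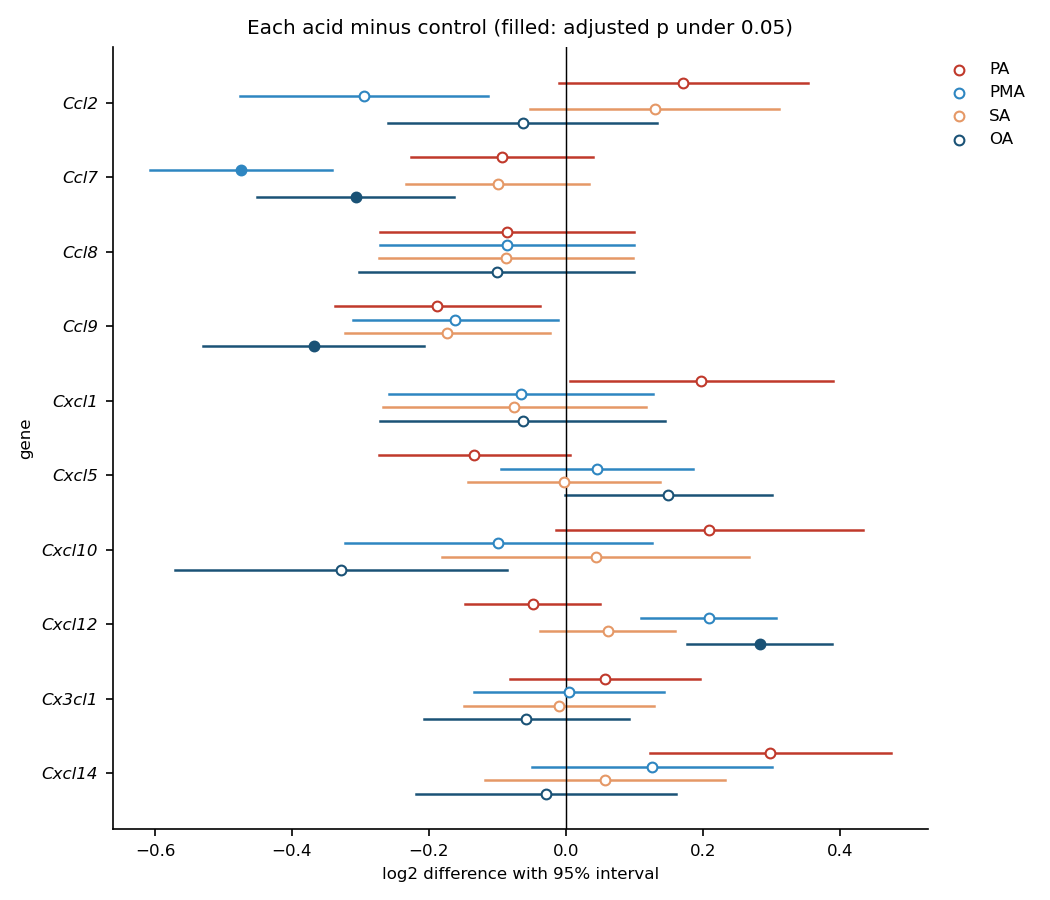
Difference in log2 RMA expression from control (horizontal axis) of each of the 10 chemokines (vertical axis) with PA, PMA, SA and OA, with 95% intervals. Filled points passed at an adjusted p under 0.05. The filled points are Ccl7 with PMA and OA, Ccl9 with OA and Cxcl12 with OA.

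Over the 19 arrays Ccl2 and Ccl7 had a Pearson r of 0.67, which was 0.16 once group means were removed (-0.08 without SA 2, 0.35 without control 3). Ccl7 and Cxcl12 had an r of -0.75, and -0.22 within groups (-0.07 without OA 1). Cxcl10 and Cxcl12 had an r of -0.78, and -0.60 within groups, and the within-group value was -0.30 without PA 1. Cxcl1 and Cxcl14 gave 0.69, and 0.58 within groups (0.51 without PA 1, 0.66 without control 1), where Cxcl14 has a signal in the background range. These describe 19 arrays that share groups and normalisation, and 45 pairs were compared.

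Among the 12545 brightest genes, those most like Ccl7 over the arrays were Wfdc21 (Pearson r = 0.834), Tes (0.821) and Mmp3 (0.777). Wfdc21 (0.828) and Tes (0.770) also led for Ccl2, before Hmga2 (0.736). For Cxcl12 they were Thbs2 (0.932), Cpe (0.932) and Kansl1 (0.914), and for Cxcl10 they were Ptgs2 (0.804), Ccl5 (0.794) and Junb (0.790). For Ccl9 the 3 were S100a8 (0.783), Micos10 (0.778) and Spcs1 (0.764), for Cxcl1 Rtn4rl2 (0.884), Rbm15b (0.862) and Tcerg1l (0.856), and for Cx3cl1 Zscan20 (0.807), Rasa4 (0.758) and Emp2 (0.758). All these genes were picked for their high r among many, and differences between groups enter each r. Within-group values are not given for them, and shared regulation was not tested.

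**Figure D5:**
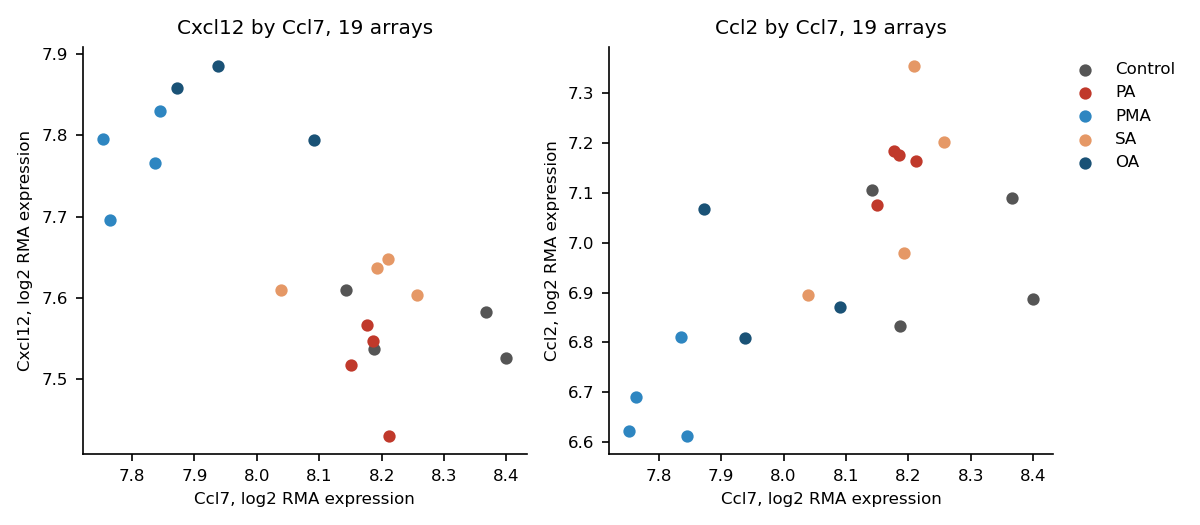
log2 RMA expression of Cxcl12 (left) and Ccl2 (right), on the vertical axes, by that of Ccl7 on the horizontal axes, 1 point per array, coloured by group. PMA and OA arrays lie at low Ccl7 and high Cxcl12, and the PMA arrays lie at low Ccl7 and low Ccl2. The r over 19 arrays was -0.75 on the left and 0.67 on the right.

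Other genes of the chemokine system were counted in the same way. Of 26 other chemokine ligands measured, none passed against control with any acid, with 1 to 5 at an unadjusted p under 0.05 in the limma fit (all genes 8.53% to 16.0%). Ccl5, the T cell and monocyte chemokine RANTES, differed from control by 0.77 with PA (interval 0.51 to 1.04, adjusted p = 0.0940), 0.54 with SA, -0.41 with PMA and -0.38 with OA, with adjusted p of 0.103, 0.142 and 0.248 for the last 3. Between acids only Ccl5 passed among them. It was higher with PA than with PMA by 1.18, with PA than with OA by 1.15 and with SA than with OA by 0.92 (limma adjusted p = 4.39e-05, 0.000124 and 0.0116). The differences of Ccl2, Ccl7 and Cxcl10 in the same pairs were 0.19 to 0.54. Ccl11, between Ccl7 and Ccl8 on chromosome 11, differed by -0.24 with PMA (adjusted p = 0.156), and Ccl12 lay in the background range at 3.43.

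Of 21 chemokine receptors measured, 0 passed against control or between acids in limma, and 0 to 7 had an unadjusted p under 0.05 (2.4% to 21.4% of all genes). The smallest p against control was that of Ccr4 with SA (-0.18, adjusted p = 0.404). Of 7 receptors of the members, Ackr3, Cx3cr1 and Cxcr3 lay above the background range, and Ccr1, Ccr2, Cxcr2 and Cxcr4 within it. None of 14 proteases that shed or trim chemokines passed against control, where only 0% to 0.861% of all genes passed. With each acid 0 to 4 of the proteases had an unadjusted p under 0.05 (all genes 8.53% to 16.0%). Their smallest p against control was that of the gelatinase Mmp2 with PMA (0.16, limma adjusted p = 0.137). Of 25 inducers of chemokines and their receptors, none passed against control (0% to 0.861% of all genes). With each acid 3 to 5 of these inducers had an unadjusted p under 0.05 (all genes 8.53% to 16.0%). The interferon gamma receptor chain Ifngr1 was lower with PA than with OA by 0.25 (-0.25, limma adjusted p = 0.0425), where 1.92% of all genes passed. The Toll-like receptor partner Ly96 differed by -0.47 with PA (adjusted p = 0.198).

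Of 17 measured NF-kB subunits, inhibitors and feedback targets, none passed against control, where only 0% to 0.861% of all genes passed. With each acid 0 to 2 of them had an unadjusted p under 0.05 in the limma fit (all genes 8.53% to 16.0%). The subunit gene Nfkb2 was higher with PA than with OA by 0.26 (limma adjusted p = 0.0406), where 1.92% of all genes passed. The smallest p of that list against control was that of Vcam1 with PMA (0.14, adjusted p = 0.209).

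Markers of other cells were read beside these results. Of 12 macrophage markers, 10 lay below the background range's upper limit in each group, Adgre1, Itgam and Ptprc among them. Cd68 and Lyz2 lay above that limit. The macrophage list's mean ran from 4.65 to 4.75 in control, 4.70 to 4.85 with PMA and 4.67 to 4.69 with OA. Of 6 measured T cell markers Cd3d, Cd3g and Cd2 lay below the limit, and Cd3e, Cd4 and Cd8a above it. Of 6 endothelial markers Pecam1, Tek and Kdr lay below the limit, and Cdh5, Vwf and Cldn5 above it. Preadipocyte and fibroblast markers, 11 measured, lay above that limit except Cd34. Their mean ran from 10.09 to 10.18 with PMA, 9.99 to 10.04 in control, 10.01 to 10.12 with OA, 9.97 to 10.06 with PA and 10.03 to 10.05 with SA. Col1a1 of that list rose with PMA, and Postn was lower with PA than with PMA and OA. In PMA against SA the adipocyte marker Lep was lower and the macrophage marker Cd68 higher with PMA. The part of these cells in the values of Ccl2, Ccl7 and Cxcl12 was not tested.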

How the data were processed

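Per the labels' protocols, 100 ng of total RNA with an integrity number over 9 went on each Affymetrix mouse whole-transcript array. The deposited table holds log2 expression of 35556 probe sets on 19 arrays, normalised by the authors (RMA; affy 1.34.0, R 2.15.0, per the submitters' processing notes); the scanner files were not used here. Of these, 21218 probe sets had 1 gene symbol, and for each of 18820 genes the probe set with the highest mean was used, without a filter on low values. Group means were estimated jointly from the 19 arrays (limma 3.58.1, R 4.3.3, lmFit and eBayes, 14 residual degrees of freedom), and 12 contrasts were tested two-sided with Benjamini-Hochberg adjustment. Averages over acids weight each acid equally. The fit was tested on simulated data. Groups came from the sample titles. The members, gene lists and alternatives were chosen with earlier results of these data known. Every member was named; of each list, genes past the threshold or the smallest p against control. Plots were drawn with matplotlib 3.10.9. The number of arrays limits the precision. 1 further gene list is not reported here.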

Additional observations from a re-analysis of the deposited data

Results flagged for a closer look

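In 3 of 40 groups of 4 arrays, 1 array stood farther from the other 3 than Dixon's 95% critical value allows, and chance alone gives about 1 in 20. Ccl9 in control replicate 2 was 6.154, where the other controls lay between 6.474 and 6.525; without it the difference of Ccl9 between the mean of the 4 acids and control was -0.31 (limma adjusted p = 0.0177) in place of -0.22. Ccl8 in PMA replicate 2 was 4.395, with the others between 4.56 and 4.585. Cxcl14 in SA replicate 4 was 4.88, with the others between 4.62 and 4.661. The last 2 genes have signals in the background range.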

How the results depend on the processing

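Beside single arrays left out, 10 other settings were tried. The members that passed stayed the same under those not named here. PMA against control: 1, and 2 without the lowest 1 in 3 genes, with a trended robust spread, with array quality weights or with PA 2 and 4 left out (Cxcl12 added), and 0 with PMA 1 and 4 left out. OA against control: 3, and 2 with every probe set tested (Ccl7 lost), 2 with only the arrays compared (Ccl7 and Ccl9 lost, Cxcl10 gained) and 4 with array quality weights (Cxcl10 gained). Mean of the acids against control: 0, and 2 with cyclic loess or array quality weights, 1 without the lowest 1 in 3 genes or with a trended robust spread. Saturated against monounsaturated: 3, and 4 without the lowest 1 in 3 genes, with a trended robust spread, with array quality weights or with PA 2 and 4 left out (Cxcl10 gained), and 2 with every probe set tested or with PMA 1 and 4 left out (Ccl2 lost). PA against PMA: 3, and 2 with cyclic loess or only the arrays compared (Cxcl12 lost), 2 with array quality weights (Ccl2 lost), 3 with PA 2 and 4 left out (Ccl2 lost, Cxcl10 gained) and 0 with PMA 1 and 4 left out. SA against OA: 0, and 1 with array quality weights. PA against OA: 3, and 1 with every probe set tested, 0 with only the arrays compared, 4 with array quality weights (Cxcl14 gained), and 2 with cyclic loess (Cxcl10 lost), without the lowest 1 in 3 genes (which drops Cxcl5 from the test), with a trended robust spread, with the replicate block, or with either pair of arrays left out (Cxcl5 lost). PMA against SA: 2, and 1 with every probe set tested, only the arrays compared, array quality weights or the replicate block, 0 with PMA 1 and 4 left out. With each array left out in turn the counts ran from 0 to 4 in OA against control, 1 to 4 in PA against OA, 2 to 4 in saturated against monounsaturated, 1 to 2 in PMA against control and in PMA against SA, and 0 to 1 in PA against control, PA against SA and the mean of the acids. They stayed at 3 in PA against PMA and at 0 in SA against control, SA against OA and PMA against OA. No called difference of a member changed sign under any alternative. Correlations between the deviations of same-numbered replicates ran from -0.43 to 0.40, and no contrast had every correlation above 0.1. By that rule numbers were not taken to pair arrays, though the rule cannot show that arrays were unpaired. The replicate block ended 2 calls of members, Ccl2 in PMA against SA and Cxcl5 in PA against OA (adjusted p = 0.0750 and 0.0784). The cause of these changes was not tested. Over all genes, limma's count of calls and its range under the 10 settings that are not a single array left out was 50 (3 to 315) in PMA against control, 162 (72 to 1188) in OA against control, 104 (49 to 255) in saturated against monounsaturated, 181 (22 to 489) in PA against PMA, 362 (8 to 727) in PA against OA and 46 (6 to 83) in PMA against SA. The number of arrays limits what could be detected.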
